A study of Mus musculus with 3 samples.

Results

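The primary granule genes of promyelocytes, 6 of the 17250 genes in the tables, were followed in mouse bone marrow (BM) during treatment with leukocyte cell-derived chemotaxin 2 (LECT2). They were Mpo, Elane, Prtn3, Ctsg, Ms4a3 and Ctsc, picked out by symbol from a set drawn up with earlier results of these data known, and each had a single row in the tables. C57BL/6 mice, 6 to 8 weeks old, were injected under the skin with recombinant LECT2, a blood cytokine made in CHO cells, daily at 300 μg per kg, over 0, 3 or 5 days. The marrow was flushed from femur, tibia, pelvis and humerus, and each time point is represented by 1 library of poly(A)-selected RNA. The number of mice behind a library and whether the 0-day mice received vehicle are not given in the sources used here. No difference between days therefore has a replicate check, no test was run, and the values describe 3 libraries.

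Primary (azurophil) granules are the first granules that a developing neutrophil makes, at the promyelocyte stage. Most of their genes are transcribed mainly in that window and are switched off as the cell becomes a myelocyte. The genes of the secondary granules then come on, followed by those of gelatinase granules and of the mature neutrophil. Ctsc is less confined, since monocytes and macrophages also express it. Mpo encodes myeloperoxidase, the haem enzyme that makes hypochlorous acid from hydrogen peroxide and chloride. Elane, Prtn3 and Ctsg encode the serine proteases neutrophil elastase, proteinase 3 and cathepsin G. Ctsc encodes cathepsin C (dipeptidyl peptidase I), which removes the N-terminal dipeptide from these proteases and so activates them. Ms4a3 encodes a membrane protein of the MS4A family that is known as a mark of granulocyte and monocyte progenitors.

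Elane and Prtn3 are neighbours on mouse chromosome 10, at chr10:79886312-79888216 and chr10:79879667-79883174. Mpo lies at chr11:87793784-87804412, Ctsg at chr14:56099885-56102574, Ctsc at chr7:88278024-88315861 and Ms4a3 at chr19:11629499-11640851. These positions are from RefSeq on GRCm38.p6, whereas the submitters' processing notes name mm8, so they place the genes and were not used to count reads. In the 250 bases before the start listed in the RefSeq promoter table, 5 of the 6 genes held the letters AGGAAGT on either strand, the core that the myeloid factor PU.1 binds. For Ctsc that start, position 88278085, lies 61 bases inside the gene span given above, and for the 5 others it is the first base of the span. Of 32851 RefSeq promoters, 7.69% held these letters in the same window. The letters were chosen after the sequences had been read, so the count is a description, and a match is not a binding site. The stretches are shown because 5 of the 6 genes share these letters, against a small share of all promoters. Each gives the match in capitals with 20 bases on either side, 5′ to 3′ on the strand that carries AGGAAGT.
Mpo, plus strand, chr11:87793541-87793587: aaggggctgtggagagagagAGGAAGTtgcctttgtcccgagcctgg
Elane, plus strand, chr10:79886208-79886254: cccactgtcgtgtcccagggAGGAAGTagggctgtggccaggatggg
Prtn3, plus strand, chr10:79879553-79879599: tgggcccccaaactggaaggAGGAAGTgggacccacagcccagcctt
Ctsg, minus strand, chr14:56102754-56102800: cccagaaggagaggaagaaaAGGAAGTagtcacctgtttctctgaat
Ctsc, minus strand, chr7:88277914-88277960: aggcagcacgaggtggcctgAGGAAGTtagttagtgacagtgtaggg

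In the neighbours Elane and Prtn3 the match began 84 and 94 bases before the start, and both also held TATAA, 31 and 32 bases before it. In Mpo and Ctsg it began farther out, 223 and 206 bases before the start. In Ctsc it lay on the strand opposite to the gene, 151 bases before the listed start and 90 bases before the gene span. Ms4a3 held no AGGAAGT in this window and was the only one of the 6 with TTNNGNAA, letters of a C/EBP site, which 36.85% of all promoters held. AACNG, the core for MYB, was in 5 of the 6 and in 74.2% of all promoters, the match in Ctsc lying inside its gene span. TATAA was in 3 of the 6 against 22.8% of all promoters, and TGTGGT, the core for RUNX factors, was in 1 against 14.05%. All letters were searched on both strands, and matches were counted whether or not they overlapped.

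The libraries held 15523952, 15146983 and 15514673 reads on genes, in the order of the days. Levels are given as RPKM, the reads of a gene divided by its length and by the library total, so that they can be compared between genes. Changes are log2 ratios of RPKM + 0.1. Each comes with a 95% interval, computed by the exact (Clopper-Pearson) method from the 2 read counts of the gene, which covers counting error only, since PCR reads are not independent molecules. A pair of properties of the libraries touches every ratio below. First, the 100 most abundant genes took up 24.8%, 19.6% and 13.5% of the reads on the 3 days, and the median log2 ratio over 11144 genes was 0.10 at 3 days and 0.31 at 5 days against 0 days, falling to 0.02 and 0.01 when the counts were scaled by TMM factors. Secondly, the ratios moved with gene length. At 3 days against 0 days, the median log2 ratio was -0.49 for the shortest 10% of genes (76 to 1050 bases) and 0.55 for the longest 10%.

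Elane, Mpo, Prtn3 and Ctsg ranked among the 365 most abundant genes of the marrow on every day, while Ms4a3 ranked between 455 and 696 and Ctsc between 505 and 1932. Elane was the highest, at 1142, 923 and 1451 RPKM on the 3 days in turn, and ranked 20th of all genes on the last day. Mpo came next with 435, 581 and 1237 RPKM, moving from rank 178 to rank 30. It had the most reads of the 6, with 17339, 22632 and 49318, because its transcript is longer. Prtn3 followed with 312, 278 and 497 RPKM, then Ctsg with 213, 192 and 291 RPKM. Ms4a3 was next with 140, 101 and 144 RPKM, and Ctsc was the lowest with 41.1, 77.7 and 134 RPKM. The order of the levels was the same in all 3 libraries. Ms4a3 and Ctsc drew close at 5 days, where the counting interval was 138 to 150 RPKM for Ms4a3 and 130 to 138 RPKM for Ctsc, and every other pair of neighbours in the order was farther apart. Together the 6 genes took 0.293%, 0.310% and 0.577% of all reads on the 3 days. In whole marrow, more cells that carry these transcripts and more transcript per cell cannot be told apart.

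**Figure D1:**
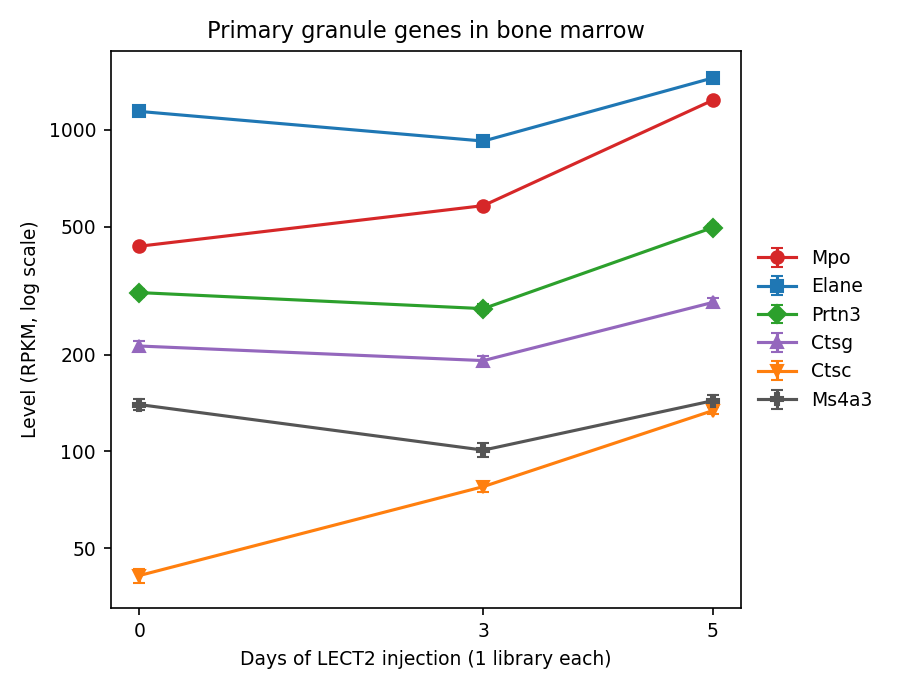
Level of each of the 6 genes (RPKM, log axis) against days of LECT2 injection, 1 library per day, with bars for the 95% counting interval. Elane is the highest on each day (1142, 923 and 1451 RPKM), Mpo and Ctsc are higher on each later day, and the 4 others have their lowest level at 3 days.

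The step from 3 to 5 days was the one in which all 6 genes were higher. Mpo was 2.13-fold higher (log2 ratio 1.09, 95% interval 1.07 to 1.11), from 581 to 1237 RPKM, and was the only one past 2-fold, alongside 1.95% of 11375 genes. None of the 6 was at least 2-fold lower, alongside 3.45% of these genes. Prtn3 had a log2 ratio of 0.84 (0.78 to 0.89), Ctsc of 0.78 (0.72 to 0.85) and Elane of 0.65 (0.62 to 0.68). Ctsg had 0.60 (0.53 to 0.67) and Ms4a3 0.51 (0.42 to 0.60). The median over the 6 genes was 0.72, against 0.25 over all genes. In this step the median was 0.09 for the shortest 10% of genes and 0.31 for the longest 10%. Within genes of its own length decile, each member lay high, from the 87.3rd percentile (Ms4a3) to the 99.4th (Mpo). All 6 ratios were above 0 under each of the 3 other scalings and with the length trend removed. Under these, however, Mpo came to between 0.83 and 0.98 and none of the 6 was past 2-fold, where the share of all genes past 2-fold higher was 0.651% under TMM scaling and 0.659% with the length trend removed. At 1.5-fold 5 of the 6 were higher, alongside 17.3% of all genes.

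From 0 to 3 days the 6 genes did not move together, and none was past 2-fold in either direction, alongside 4.08% of 11325 genes that were at least 2-fold higher and 2.41% that were at least 2-fold lower. Mpo and Ctsc were higher, with log2 ratios of 0.42 (0.39 to 0.45) and 0.92 (0.83 to 1.01). Elane, Prtn3 and Ctsg, the serine proteases, were lower in RPKM, at -0.31 (-0.34 to -0.27), -0.17 (-0.23 to -0.11) and -0.15 (-0.22 to -0.08), but came to 0.10, 0.22 and 0.22 once the trend on gene length was removed. Ms4a3 was lower at -0.47 (-0.57 to -0.38), and at -0.10 without the length trend. Transcript length separated the genes in the same way. Mpo (2570 bases) and Ctsc (2472 bases) lie in the fifth decile of gene length, where the median over genes was 0.08, and the 4 others (920 to 1012 bases) lie in the shortest decile, where it was -0.49. With the trend removed, Ctsc was still at 0.84 and Mpo at 0.32, above the -0.10 to 0.22 of the 4 others. At 1.5-fold only Ctsc was higher, alongside 16.4% of all genes. The part of transcript length in these differences between genes was not tested beyond the removal of the trend.

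**Figure D2:**
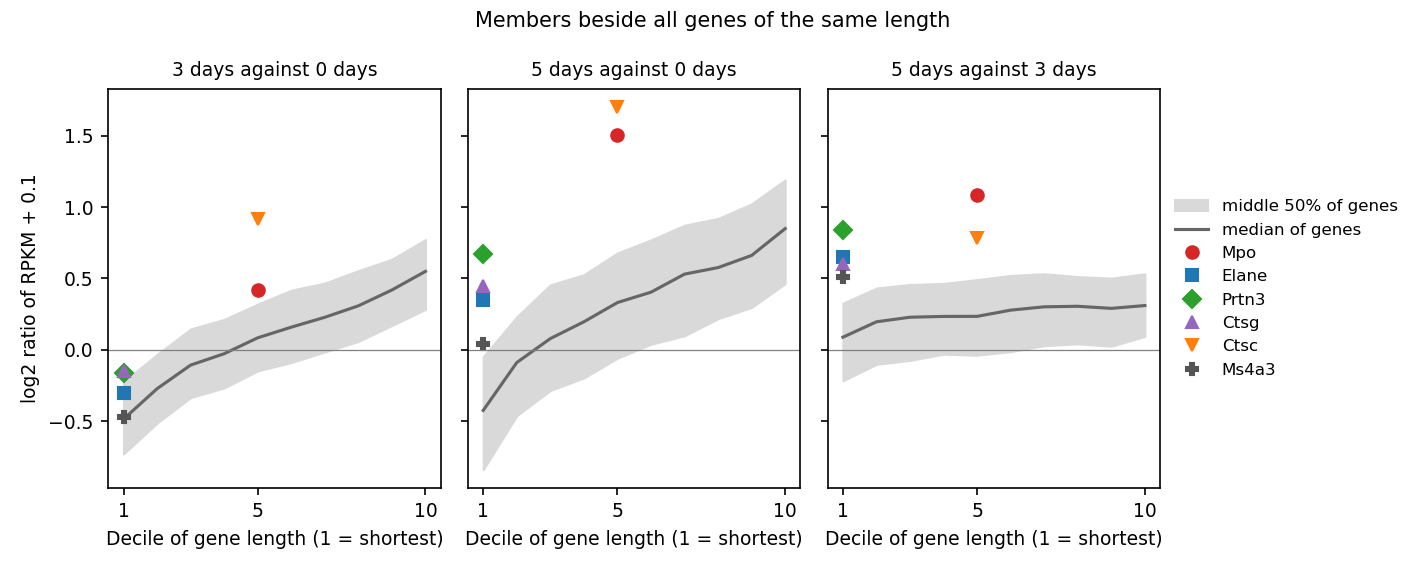
Log2 ratio of RPKM + 0.1 against decile of gene length, for each pair of days. The grey line is the median of all genes in a decile and the band their middle 50%, and the symbols are the 6 genes. The line climbs from -0.49 to 0.55 at 3 days against 0 days and from 0.09 to 0.31 at 5 days against 3 days, and at 5 days against 3 days all 6 genes lie above the band.

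Over the whole 5 days, Ctsc and Mpo changed most. Ctsc was 3.25-fold higher than at 0 days (log2 ratio 1.70, 1.62 to 1.79) with 1576 reads at 0 days and 5133 at 5 days. Mpo was 2.85-fold higher (1.51, 1.48 to 1.53). These 2 of the 6 genes were at least 2-fold higher and none was at least 2-fold lower, alongside 15.5% of 11497 genes that were higher by this measure and 5.91% that were lower. These shares turned to 7.24% higher and 9.92% lower under TMM scaling and to 5.05% and 7.61% with the length trend removed. At 1.5-fold Prtn3 joined them, alongside 34.5% of all genes. Both stayed past 2-fold under every scaling, with log2 ratios of at least 1.39 for Ctsc and at least 1.17 for Mpo. The proteases changed less. Prtn3 had a log2 ratio of 0.67 (0.62 to 0.72), Ctsg of 0.45 (0.39 to 0.52) and Elane of 0.35 (0.32 to 0.38), which under TMM scaling came to 0.36, 0.14 and 0.04 and with the length trend removed to 0.91, 0.68 and 0.63. Ms4a3 was at the same level at 5 days as at 0 days within counting error, with a log2 ratio of 0.04 (-0.05 to 0.13), and lay at -0.27 under TMM scaling and at 0.26 with the length trend removed. The median over the 6 genes was 0.56 against 0.31 over all genes. Compared with genes of like length, whose median was 0.33 for Mpo and Ctsc and -0.43 for the 4 others, the members lay between the 81.2nd (Ms4a3) and the 98.6th (Ctsc) percentile. The 3 comparisons share libraries and are not independent of each other.

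**Figure D3:**
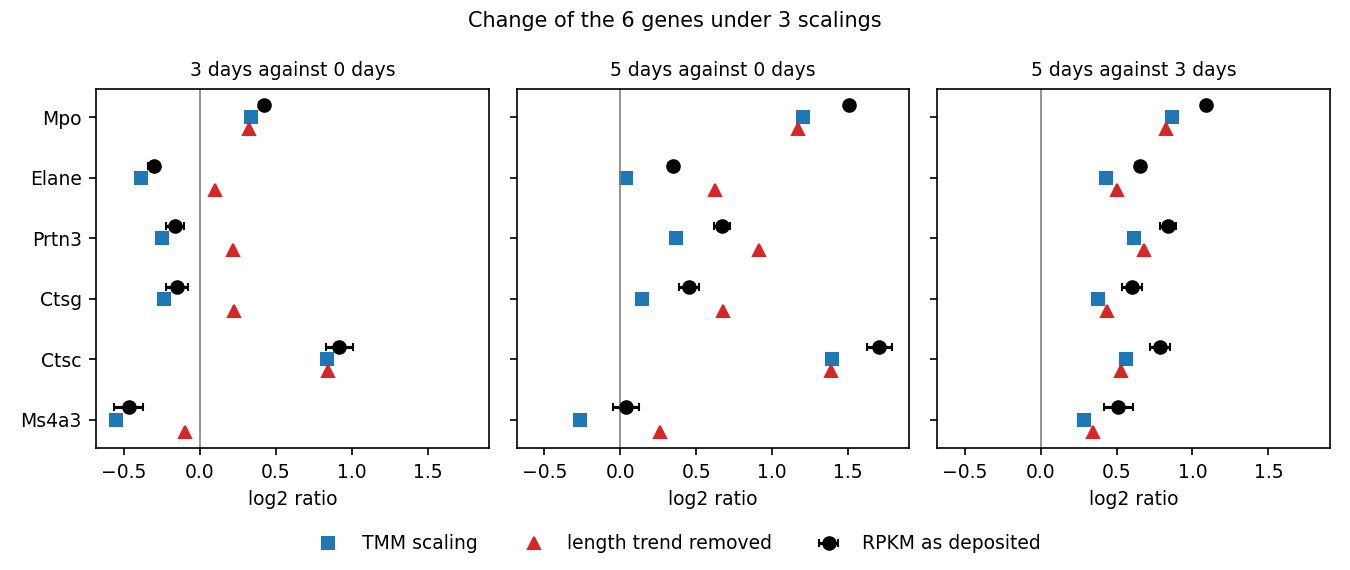
Log2 ratio of each gene for each pair of days, with RPKM as deposited (black, 95% counting interval), TMM scaling (blue) and the length trend removed (red). At 5 days against 3 days every value is above 0, whereas at 3 days against 0 days Elane, Prtn3 and Ctsg change side with the length trend removed, and at 5 days against 0 days Ms4a3 lies at 0.04, -0.27 and 0.26.

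The ratio of one gene to another within a library does not depend on how the library is scaled. Among the 3 serine proteases, which are of nearly equal length, each of these ratios moved over 5 days by more than counting error. Elane was 5.37 times Ctsg at 0 days, 4.82 times at 3 days and 4.99 times at 5 days. Prtn3 was 1.47, 1.45 and 1.71 times Ctsg, and Elane was 3.66, 3.32 and 2.92 times Prtn3. The largest of these shifts, that of Elane against Prtn3 over 5 days, was -0.33 on the log2 scale (-0.39 to -0.27). Mpo was higher against each of the 3 proteases at 5 days, from 0.381 to 0.630 to 0.853 times the level of Elane, from 1.39 to 2.49 times that of Prtn3 and from 2.04 to 4.26 times that of Ctsg. The log2 changes over 5 days against Elane, Prtn3 and Ctsg were 1.16, 0.84 and 1.06, and with the length trend removed 0.54, 0.26 and 0.49, the second no larger than the change of Elane against Prtn3 on that scale (-0.29). The ratio of Mpo to Ctsc, which is of similar length, was 10.6, 7.49 and 9.24, a log2 change of -0.50 (-0.59 to -0.41) at 3 days and of -0.20 (-0.28 to -0.11) at 5 days against 0 days. Against Ms4a3, which is of the same length class as the proteases, Elane went from 8.17 to 10.1 times, Prtn3 from 2.23 to 3.46 times and Ctsg from 1.52 to 2.02 times.

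A separate question was how the primary granule genes stood against the genes of later neutrophil stages in the same marrow. The most abundant secondary granule genes stood far above the 6, with Ngp at 21998, Camp at 14235 and Lcn2 (lipocalin 2) at 10826 RPKM at 0 days, while others were at or below the level of Mpo, such as Cd177 at 430 RPKM. Of 10 secondary granule genes, 5 were at least 2-fold lower at 5 days than at 0 days, alongside 5.91% of all genes. Of the 10, 1 was above 0, and the median log2 ratio was -0.85. Ltf (lactoferrin) went from 4360 to 4010 to 1686 RPKM and Camp (cathelicidin) from 14235 to 7762 to 3609. Late neutrophil genes differed more, and 8 of the 9 that averaged 1 RPKM or more were past 2-fold lower at 5 days (median -2.14), among them S100a9 (-2.14) and Retnlg (-3.96). The summed RPKM of the 6 primary granule genes amounted to 4.17%, 4.84% and 17.9% of that of the secondary granule genes. Against the late neutrophil genes it was 2.31%, 2.86% and 16.4%. Both sides moved from 0 to 5 days. The sum of the 6 genes went from 2282 to 3753 RPKM, that of the secondary granule genes from 54735 to 20967 RPKM. That of the late neutrophil genes went from 98873 to 22835 RPKM.

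To hold transcript length apart, each member was set against the secondary granule gene closest to it in length, a comparison chosen after the values were seen. Elane (920 bases) was 10.5% of Lcn2 (853 bases) at 0 days, 11.4% at 3 days and 46.3% at 5 days. Prtn3 went from 2.88% to 3.44% to 15.8% of Lcn2, Ctsg from 1.96% to 2.37% to 9.27%, and Ms4a3 from 1.29% to 1.25% to 4.58%. Mpo went from 101% to 119% to 587% of Cd177 (2733 bases), and Ctsc from 9.54% to 15.9% to 63.5%. All 6 ratios were therefore higher at 5 days than at 0 days, by 1.83 (Ms4a3) to 2.73 (Ctsc) on the log2 scale, and most of the shift came between 3 and 5 days. From 0 to 3 days it was between -0.05 (Ms4a3, -0.14 to 0.04) and 0.74 (Ctsc, 0.65 to 0.83). A ratio moves with either gene, and Lcn2 itself had a log2 ratio of -1.79 and Cd177 of -1.03 at 5 days, so that Lcn2 made up most of the shift of the 4 short genes. The size also rests on the gene chosen. Ngp (1176 bases) is almost as near in length to Ms4a3 as Lcn2, and against Ngp the shift of Ms4a3 over 5 days was 1.12 and not 1.83. Against Olfm4, the one secondary granule gene above 0 at 5 days, it was 0.00 for Ms4a3 and 0.30 for Elane.

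**Figure D4:**
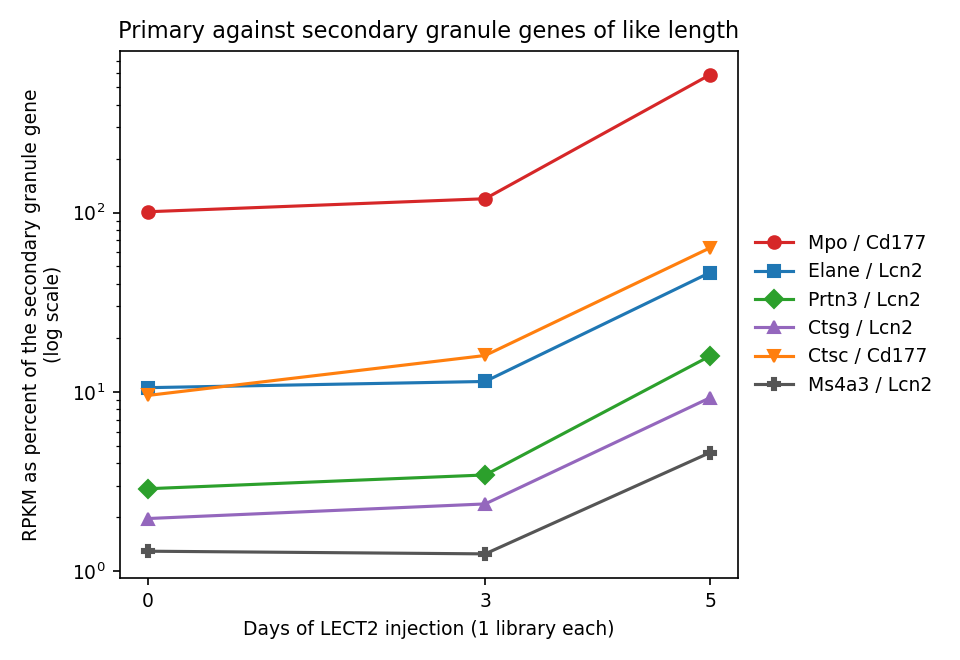
RPKM of each of the 6 genes as a percent of the secondary granule gene nearest in length (log axis) against days of LECT2 injection. All 6 lines lie nearly level from 0 to 3 days, apart from Ctsc (9.54% to 15.9%), and are higher at 5 days, as with Elane at 46.3% of Lcn2.

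Upstream of the promyelocyte, 9 stem and progenitor genes had medians of -0.48 and -0.09 at 3 and 5 days against 0 days, the latter -0.40 under TMM scaling and -0.51 with the length trend removed. Kit, the receptor for stem cell factor, was at 8.19, 10.01 and 16.1 RPKM (log2 ratio at 5 days 0.96, or 0.28 with the length trend removed). Cd34 was at 24.1, 14.6 and 21.9 RPKM. From 3 to 5 days 8 of the 9 were higher, none of them 2-fold, in a step whose median over all genes was 0.25. The exception was Sox4, the most abundant of them, at 97.5, 68.3 and 53.1 RPKM. Gata2, at 32.6, 25.8 and 28.3 RPKM, was lower in this step under TMM scaling (-0.09) and with the length trend removed (-0.15). The share of all genes above 0 was not counted. The promyelocyte label could not be checked cell by cell in whole marrow. The 10 other genes associated with this stage did not move as a group, with 5 above and 5 below 0 at 5 days against 0 days and a median of 0.02, or 3 above and 7 below with a median of -0.28 under TMM scaling. Fcnb (ficolin B) was at 156, 185 and 225 RPKM and Gstm1 at 80.8, 96.0 and 164 RPKM, whereas Trem3 went from 140 to 121 to 61.9 RPKM, the last named after its values were seen.

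Genes of other granule and lysosome proteins did not follow the 6 genes as one. Of 11 such genes that averaged 1 RPKM or more, 7 were above and 4 below 0 at 5 days, with a median of 0.47 (0.16 under TMM scaling and 0.20 with the length trend removed). Among the 7 were the lysosomal membrane genes Lamp1 (0.82) and Lamp2 (0.51), named after their values were seen. The median without them was not computed. In RPKM 1 in each direction was past 2-fold, alongside 15.5% of all genes higher and 5.91% lower. Under these alternatives none was past 2-fold higher. Prss57, the fourth neutrophil serine protease, was low, at 7.20, 6.62 and 12.2 RPKM. Srgn encodes serglycin, the proteoglycan to which the granule proteases bind, and it went the other way, from 1911 to 1362 to 785 RPKM (log2 ratio at 5 days -1.28, -1.32 to -1.25). Lyz2, a lysozyme of all neutrophil granules and of macrophages, was at 3878, 5120 and 3898 RPKM. Cd63, a membrane protein of the primary granule, was at 290, 211 and 159 RPKM. Gusb, encoding the lysosomal enzyme beta-glucuronidase and named after its values were seen, was the gene at least 2-fold higher in RPKM, at 21.2, 28.0 and 51.2, and came to a log2 ratio of 0.96 under either alternative.

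Inhibitors of the proteases were mostly at lower levels. Of 8 inhibitor genes, 7 were below 0 at 5 days against 0 days and 5 with the length trend removed, with medians of -0.40 and -0.46. Under TMM scaling the median was -0.71, and 2 of the 8 were past 2-fold lower, alongside 9.92% of all genes. Slpi, which inhibits elastase and cathepsin G, was at 243, 197 and 58.5 RPKM and was the one past 2-fold in RPKM (-2.05). Serpinb1a, which inhibits elastase, cathepsin G and proteinase 3 inside the cell, was at 151, 154 and 114 RPKM. Cst7 (cystatin F), an inhibitor of cathepsin C, was the one above 0, at 41.2, 31.3 and 56.6 RPKM. Slpi (894 bases) and Elane both lie in the shortest decile of length.

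Genes for folding and sorting granule proteins had a median log2 ratio of 0.53 at 5 days over 13 genes, against 0.31 over all genes, and of 0.07 with the length trend removed. Calr (calreticulin), a chaperone of the myeloperoxidase precursor, was at 383, 361 and 543 RPKM. Hsp90b1, Hspa5 and Pdia3 had log2 ratios of 0.02, -0.01 and 0.49 at 5 days. The 3 of 13 genes past 2-fold higher, alongside 15.5% of all genes, were Gnptab, Lyst and Vps13b, named after their values were seen. They have transcripts of 5204 to 13380 bases and came to 0.62, 1.34 and 0.50 with the length trend removed. Of 11 myeloid transcription regulators, none was past 2-fold in RPKM. Under TMM scaling 2 were past 2-fold lower, alongside 9.92% of all genes, Lmo4 (-0.82 in RPKM, -1.13 under TMM) and Cebpb (-0.76 and -1.06). The median of the 11 at 5 days was 0.41, or 0.11 under TMM scaling and 0.08 with the length trend removed. Cebpa, which drives entry into the granulocyte line, was at 18.8, 21.6 and 34.3 RPKM (0.86 at 5 days, 0.55 and 0.50 under these alternatives). Myb, which acts on the Mpo and Elane genes, was at 89.8, 114 and 139.5 RPKM (0.63, 0.33 and 0.08). Cebpe, which drives secondary granule genes, was at 87.6, 97.6 and 72.2 RPKM. Sfpi1, the gene of PU.1 under the symbol used in the tables, was at 193, 247 and 215 RPKM, with a log2 ratio of 0.16 at 5 days (-0.15 under TMM scaling). Gfi1, a repressor active in promyelocytes, had 5, 12 and 15 reads, and Csf3r, the receptor for G-CSF and named after its values were seen, had 25, 57 and 20, so for these genes the tables held almost no reads. The Csf3r row is identified by a non-coding transcript of the gene, and whether such rows count all of a gene's reads was not tested.

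**Figure D5:**
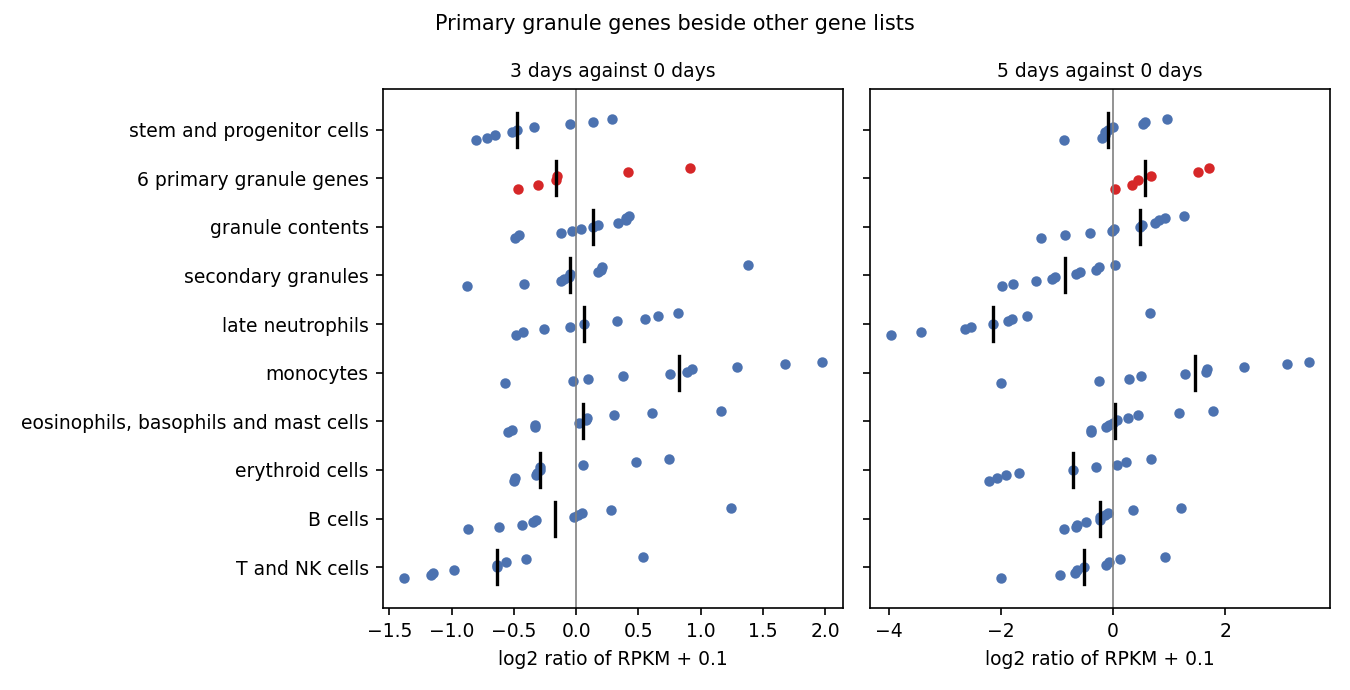
Log2 ratio of RPKM + 0.1 at 3 days and at 5 days against 0 days, each point a gene and each black bar the median of its list, with the 6 primary granule genes in red. At 5 days the medians are 0.56 for the 6 genes, -0.85 for secondary granule genes, -2.14 for late neutrophil genes and 1.46 for monocyte genes.

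Markers of other cells moved as well. The median over monocyte genes was 1.46 at 5 days, or 0.89 with the length trend removed. In RPKM, 6 of 10 were past 2-fold higher and 1 past 2-fold lower, alongside 15.5% and 5.91% of all genes. Under TMM scaling or with the length trend removed, 5 of the 10 were past 2-fold higher. Their summed level was 1694, 2039 and 2581 RPKM. None of the 10 was without reads. They did not move as one. Of the 4 most abundant, F13a1 had a log2 ratio of 2.34 and Mpeg1 of 1.27, but Ly6c2 had 0.29 and Lgals3 -0.25. Ccr2 (1.65), Csf1r (1.67) and Cd14 (-1.99) were named after their values were seen. Ctsc is also expressed by monocytes and macrophages, and Mpo and Elane by progenitors shared with monocytes, and the part of these cells in the higher levels was not tested. As a percent of Ly6c2, the monocyte gene nearest in length, Elane was at 123%, 93.0% and 127%, Prtn3 at 33.5%, 28.0% and 43.6%, and Ctsg at 22.8%, 19.3% and 25.5%. Ms4a3 went the other way, at 15.01%, 10.2% and 12.6% of Ly6c2. These percents rest on Ly6c2, whose ratio lay below those of F13a1, Mpeg1, Ccr2 and Csf1r and above those of Lgals3 and Cd14. The ratios of Elane (0.35), Prtn3 (0.67) and Ctsg (0.45) lay between the same genes. Mpo against Ccr2, the nearest to it in length, had a log2 change of -0.14 (-0.21 to -0.07) over 5 days. Ctsc was at 27.8%, 78.2% and 362% of Cd14, the nearest to it in length, which was itself lower on each later day. This shift rests on the gene chosen. Ccr2 (3589 bases) is almost as near in length to Ctsc (2472 bases) as Cd14 (1497 bases). Its log2 ratio of 1.65 at 5 days was close to the 1.70 of Ctsc. Of 10 genes of eosinophils, basophils and mast cells, 2 were at least 2-fold higher at 5 days and 1 under TMM scaling or with the length trend removed. The share of all genes was 15.5% in RPKM, 7.24% under TMM scaling and 5.05% with the length trend removed. The median of the 10 genes was 0.03 (-0.27 and 0.27 under these alternatives), with a summed level of 4241, 3624 and 4257 RPKM. The medians at 5 days against 0 days were -0.71 for 9 erythroid genes, -0.23 for 10 B cell genes, -0.53 for 9 T and NK cell genes and -1.31 for 7 osteolineage and endothelial genes. Under TMM scaling they were -1.01, -0.54, -0.83 and -1.62 in the same order.

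Likeness of pattern was measured as the distance between genes in the pair of log2 ratios at 3 and 5 days against 0 days, over the 3 libraries and 731 genes that averaged 100 RPKM or more. The genes nearest to the median of the 6 were Ube2c (distance 0.04), Tagln2 (0.05), Ranbp1 (0.06), Ssrp1 (0.08) and Calr (0.09). Ube2c, which acts in mitosis, was nearest at ratios of -0.19 and 0.53. Nearest to Mpo were Top2a (0.29), Tmpo (0.30) and Ms4a6c (0.30), and nearest to Ctsc were Hnrnpul1 (0.14), Mki67 (0.15) and Tgfbi (0.20). The distances carry the length trend, and Top2a (5217 bases) and Mki67 (10098 bases) are much longer than Mpo and Ctsc. Nearest to Elane was Eef1g (0.06), to Prtn3 Tagln2 (0.09), to Ctsg Eif4a1 (0.07) and to Ms4a3 Cct6a (0.04). Among the 6, Mpo was the one whose nearest gene was farthest away. With 2 ratios from 3 libraries, likeness of this kind is a description of the libraries.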

How the data were processed

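RNA from flushed BM cells was sequenced in 3 libraries, 1 each after 0, 3 and 5 days of LECT2. The authors deposited, for each pair of days, a table with the read count of each gene as whole numbers and its RPKM, for which their methods name Cufflinks. In the deposited tables RPKM is the count over gene length and the library's reads on genes, to within 0.1% apart from 18 and 14 rows at 0 and 3 days. The tables also hold the authors' log2 ratios, P values and false discovery rates between libraries, which were not used. The submitters' processing notes name the build mm8, and the aligner is not given in the sources used here. A supplementary legend calls the cells mononuclear.

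Genes without reads, listed at 0.01 RPKM, were set to 0. Where a name had more than 1 row (232 names), the row of highest mean level was taken. Log2 ratios used a pseudocount of 0.1 RPKM, and the share of genes past 2-fold was taken over genes that reached 1 RPKM in one of the libraries compared. Lists were summarised over genes that averaged 1 RPKM or more. At this depth 1 read per 1000 bases is worth 0.0644 to 0.0660 RPKM. The 6 genes and the 15 further lists were chosen with earlier results of these data known. From each list at most the 4 genes with the highest mean RPKM were named by rule, plus a fixed set that act on a member or mark a neighbouring stage (Prss57, Srgn, Cst7, Serpinb1a, Slpi, Calr, Cebpa, Cebpe, Gfi1, Myb, Spi1, Fcnb, Epx, Prg2, Mcpt8, Kit, Cd34, Ltf, Camp and Ngp). Apart from the genes nearest in pattern, those outside this rule were named after their values were seen, among them Cd177 and Olfm4. Alternatives were pseudocounts of 1 and 0.01, TMM factors (edgeR 4.0.16), median-of-ratios factors (DESeq2 1.42.0), scaling to reads outside the 100 most abundant genes, removal of the length trend (lowess, span 0.3, statsmodels 0.14.6), summed rows of a symbol, a fold threshold of 1.5, a minimum of 5 RPKM and no minimum. The steps were tested on simulated counts. Computations were run in Python 3.11.15 (pandas 2.3.3, numpy 2.4.6, scipy 1.17.1) and R 4.3.3. Promoter sequences are from RefSeq, GRCm38.p6, in which all 6 genes were found.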

Additional observations from a re-analysis of the deposited data

How the results depend on the processing

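The counts of the 6 genes past 2-fold were the same under pseudocounts of 1 and 0.01 and with summed rows, and so was the direction of all 6 genes in each comparison. At 3 days against 0 days the median log2 ratio of the 6 genes, -0.16 in RPKM, was -0.24 under TMM scaling, -0.24 under median-of-ratios scaling and -0.25 under scaling to reads outside the 100 most abundant genes, and reversed to 0.22 with the length trend removed. Elane (0.10), Prtn3 (0.22) and Ctsg (0.22) reversed with it. In the same order, the share of all genes at least 2-fold higher went from 4.08% to 3.11%, 3.13%, 2.96% and 2.59%, and to 1.68% with a pseudocount of 1. The share at least 2-fold lower went from 2.41% to 3.14%, 3.13%, 3.23% and 1.81%, and to 1.06% with a pseudocount of 1. It was 1.42% with a minimum of 5 RPKM and 3.99% with no minimum. At 5 days against 0 days the median, 0.56 in RPKM, was 0.25, 0.26 and 0.36 under these scalings in the same order and 0.79 with the length trend removed. The number of the 6 at least 2-fold higher was 2 under all of them, while the share of all genes went from 15.5% to 7.24%, 7.50%, 9.55% and 5.05%, and to 9.92% with a pseudocount of 1. At 5 days against 3 days the median, 0.72 in RPKM, was 0.49, 0.50, 0.61 and 0.52, and the number at least 2-fold higher was 0 under each of the 4, since Mpo came to log2 ratios of 0.87, 0.87, 0.98 and 0.83. The share of all genes went from 1.95% to 0.651%, 0.677%, 1.07% and 0.659%, and to 0.457% with a pseudocount of 1. With a threshold of 1.5-fold, 1 of the 6 was higher at 3 days against 0 days (16.4% of all genes), 3 at 5 days against 0 days (34.5%) and 5 at 5 days against 3 days (17.3%). The 6 genes had between 1546 and 49318 reads. Variation between mice was not measured, because each day has 1 library, and leaving a library out removes the comparison. No paired analysis was possible because each group has 1 sample.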

Other observations

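Relatives of the 6 proteins by family gave a mixed picture. Epx, the eosinophil peroxidase and closest relative of Mpo in the tables, was at 135, 205 and 305 RPKM, with a log2 ratio of 1.18 at 5 days (0.81 with the length trend removed), beside 1.51 (1.17) for Mpo, and their transcripts are of similar length (2691 and 2570 bases). Mcpt8, a basophil protease from the gene cluster on chromosome 14 that also holds Ctsg, was at 239, 164 and 181 RPKM, with a log2 ratio of -0.40 at 5 days where Ctsg had 0.45. Cfd, which lies in the cluster with Elane and Prtn3, had only 10, 4 and 2 reads. Among cathepsins of the same fold as Ctsc, Ctsb was at 137, 136 and 154 RPKM, Ctsh at 122, 144 and 154 RPKM and Ctsz at 122, 115 and 172 RPKM, none past 2-fold, and Ctsl was at 42.8, 26.1 and 20.7 RPKM (-1.04). Of the Ms4a genes, Ms4a6c, found in monocytes and macrophages, was at 85.9, 138 and 222 RPKM, with a log2 ratio of 1.37 at 5 days where Ms4a3 had 0.04. Ctsh, Ctsz, Ctsl and Cfd were named after their values were seen.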
